A study of Mus musculus with 12 samples.

Results

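The mitochondrial protein import machinery was examined in mouse embryonic fibroblasts (MEFs) that had lost mitochondrial DNA (mtDNA). Its members were the rows of the gene table whose symbol begins with Timm or Tomm followed by a digit, together with Dnajc19, Pam16, Grpel1, Hspa9, Samm50, Mtx1, Mtx2, Mtx3, Pmpca, Pmpcb, Chchd4 and Gfer. This rule uses names only and found 37 genes of the 24453 in the table. RNA-Seq covered 4 lines in biological triplicate, which gave 12 libraries. TM6 MEFs, of C57BL6/J background, carry the genotype Pnpt1 neo-flox/neo-flox, so that both alleles of the gene for PNPase, a mitochondrial exoribonuclease, can be excised by Cre. The rho0 line was derived from TM6 by 3 weeks in 750 ng/mL ditercalinium dichloride dihydrochloride, a drug that depletes mtDNA, and grew from a single colony. PKO-1 and PKO-6 are 2 clones isolated after TM6 cells were infected with an adenovirus that expresses Cre, and the PKO group holds their 6 libraries. All 4 lines derive from cells with the floxed Pnpt1 genotype, from which Cre removed an exon in the PKO clones, and were kept in 50 µg/mL uridine, which cells without respiration need. Each derived line is 1 clone, so that the spread between its replicates is a spread between cultures, and a change shared by its libraries cannot be told apart from a change particular to that clone.

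Nearly all mitochondrial proteins are encoded in the nucleus, made in the cytosol and imported. They enter through the TOM complex of the outer membrane and are then sorted to the SAM complex for outer membrane barrels, to the disulfide relay and the small TIM chaperones of the intermembrane space, to the TIM22 translocase for carrier proteins of the inner membrane, or to the TIM23 channel and its Hsp70 motor for the matrix, where a processing peptidase removes the targeting sequence. Import through TIM22 and TIM23 depends on the potential across the inner membrane, which cells without mtDNA have to maintain without respiration.

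The libraries held 47164860 to 67991378 estimated counts, of which 12.2% to 19.6% fell on Rn45s, the ribosomal RNA precursor. Of the 37 members, 35 passed the filter on low counts and were tested among 14026 genes, and Tomm20l and Timm8a2 had fewer than 10 counts in every library. Normalized counts (counts scaled to the mean library by edgeR's TMM method) of Pnpt1 itself were 2832, 3242 and 3319.5 in TM6 and 5051, 5251 and 5509.5 in rho0, against 1254, 1191 and 1276 in PKO-1 and 1897, 1720.4 and 2214 in PKO-6. All 6 PKO libraries lay below every TM6 library, although the counts cover the whole gene and Cre removes only an exon of it. Of the fibroblast markers, Vim (1142 to 2340 TPM) and Col1a1 (169 to 1042 TPM) were high in every library, while Thy1 was at 0.1 TPM or lower and Lum at 0 in all rho0 libraries. Summed over the marker lists, the 11 fibroblast markers ranged from 6624 to 6824 TPM in TM6, 3764 to 3866 in rho0, 6796 to 6962 in PKO-1 and 3026 to 3347 in PKO-6, and the 4 epithelial markers, mostly Krt18 in TM6, rho0 and PKO-1 and mostly Epcam in PKO-6, from 6.11 to 6.55, 10.2 to 11.7, 19.2 to 20.1 and 1.65 to 2.01 TPM. The 3 endothelial markers reached at most 0.89 TPM and the 3 blood markers at most 6.04 TPM. The part of these marker differences in the results that follow was not tested. Values are relative to all RNA of a bulk library, so that fewer cells of a type and less RNA per cell cannot be told apart.

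The promoters of the members are shown first because several share short elements that the selection by name did not use. RefSeq windows of 300 bases (250 before and 50 from the transcription start, GRCm38.p6) were found for 33 of the 37 members, not for Hspa9, Timm21, Tomm40l and Tomm7, and for 27025 genes in all. An ETS element (CCGGAAGT, either strand) was present in 8 of the 33 (24.2%) and in 4.31% of all genes, in Mtx2, Mtx3, Pmpcb, Timm10, Timm10b, Timm23, Timm8a2 and Tomm70a. An NRF1 element (CGCANGCGC, either strand), named for a factor of nuclear genes for mitochondrial proteins, was present in 6 of the 33 (18.2%) and in 7.12% of all genes, in Chchd4, Pam16, Timm13, Timm50, Timm8b and Tomm20. An E-box (CACGTG) was present in 7 of the 33 (21.2%) and 8.09% of all genes. The integrated stress response acts on many genes through the element of C/EBP-ATF dimers (TTGCATCA, either strand). This element was in 0 of the 33 and in 1.03% of all genes. At so small a share, 0 among 33 does not tell the members apart from other genes, and Hspa9 and Timm21 were not searched. The median GC content was 58.7% for the members' windows and 52.7% for all windows, and its part in these shares was not tested. None of the 4 motifs contains another. The stretches from 90 bases before the start to 30 bases from it are given for some of the members that carry an element near the start or that differ between lines, picked after the values were seen, with matches to the 4 motifs in capitals and the start at base 91.
Mtx2 (chr2:74825722-74825841, plus strand): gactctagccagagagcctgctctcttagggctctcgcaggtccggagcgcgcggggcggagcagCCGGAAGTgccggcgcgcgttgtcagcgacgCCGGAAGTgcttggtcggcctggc
Mtx3 (chr13:92844678-92844797, plus strand): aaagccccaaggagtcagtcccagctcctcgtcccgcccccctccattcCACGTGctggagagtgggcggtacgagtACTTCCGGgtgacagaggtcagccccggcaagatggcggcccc
Pmpcb (chr5:21737070-21737189, plus strand): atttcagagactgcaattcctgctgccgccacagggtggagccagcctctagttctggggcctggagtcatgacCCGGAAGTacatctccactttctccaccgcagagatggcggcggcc
Timm10 (chr2:84826931-84827050, plus strand): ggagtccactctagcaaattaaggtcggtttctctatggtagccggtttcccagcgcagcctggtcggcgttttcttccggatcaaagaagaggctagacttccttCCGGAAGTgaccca
Timm23 (chr14:32201862-32201981, minus strand): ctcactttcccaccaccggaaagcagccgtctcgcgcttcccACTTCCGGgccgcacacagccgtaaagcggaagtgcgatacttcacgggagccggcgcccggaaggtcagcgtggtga
Tomm70a (chr16:57121624-57121743, plus strand): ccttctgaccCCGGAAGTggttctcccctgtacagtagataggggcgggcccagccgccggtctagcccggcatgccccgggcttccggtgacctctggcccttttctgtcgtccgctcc
Pam16 (chr16:4624917-4625036, minus strand): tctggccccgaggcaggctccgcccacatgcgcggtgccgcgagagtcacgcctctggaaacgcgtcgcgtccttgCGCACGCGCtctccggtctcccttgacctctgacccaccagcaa
Tomm20 (chr8:126945892-126946011, minus strand): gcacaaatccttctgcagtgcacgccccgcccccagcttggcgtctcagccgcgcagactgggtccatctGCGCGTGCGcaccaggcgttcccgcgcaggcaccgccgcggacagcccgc
Timm8b (chr9:50603811-50603930, plus strand): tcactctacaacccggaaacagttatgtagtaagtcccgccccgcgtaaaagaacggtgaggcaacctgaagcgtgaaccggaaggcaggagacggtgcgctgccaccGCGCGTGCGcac
Timm9 (chr12:71136646-71136765, minus strand): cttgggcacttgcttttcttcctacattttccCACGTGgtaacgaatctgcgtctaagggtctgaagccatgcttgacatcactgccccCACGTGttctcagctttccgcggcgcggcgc
Timm17a (chr1:135313708-135313827, minus strand): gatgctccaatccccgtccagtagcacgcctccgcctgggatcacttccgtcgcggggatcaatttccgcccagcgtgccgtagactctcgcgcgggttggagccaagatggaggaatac
Timm17b (chrX:7899246-7899365, plus strand): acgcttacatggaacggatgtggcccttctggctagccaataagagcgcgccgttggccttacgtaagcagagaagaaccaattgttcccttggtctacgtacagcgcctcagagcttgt
Tomm22 (chr15:79670778-79670897, plus strand): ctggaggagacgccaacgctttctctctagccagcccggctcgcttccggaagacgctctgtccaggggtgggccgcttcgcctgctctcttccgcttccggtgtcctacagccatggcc
Gfer (chr17:24696127-24696246, minus strand): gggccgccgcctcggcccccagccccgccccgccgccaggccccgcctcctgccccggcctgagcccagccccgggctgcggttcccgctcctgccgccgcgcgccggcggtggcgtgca

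Read from these lines, Mtx2 carries the ETS element on each side of its start, at positions -25 and 7, Pmpcb at -16, Mtx3 at -13 beside an E-box at -41, Timm23 at -48, Tomm70a at -80 and Timm10 at 17. The NRF1 element lies at -14 in Pam16, -20 in Tomm20 and 19 in Timm8b. Timm9 carries E-boxes at -58 and -1, while Timm17a, Timm17b, Tomm22 and Gfer carry none of the 4 motifs in the stretches shown. A match describes letters in the window and is not a measurement of binding.

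Levels between genes were compared in TPM, which accounts for transcript length. Hspa9, which encodes the Hsp70 that pulls precursors into the matrix, was the most abundant member in all 4 lines, at 487 ± 25.8 TPM in TM6 (SD, n = 3), 1456 ± 30.3 in rho0, 1157 ± 90.8 in PKO-6 and 757 ± 28.9 in PKO-1. Tomm22, the central receptor of the TOM complex, was the second in each line, at 231 ± 6.22, 155 ± 6.04, 191 ± 4.71 and 219 ± 1.24 TPM in the same order. In TM6, Tomm6, a small TOM subunit, followed at 183 ± 10.1 TPM and Timm23, the protein-conducting channel of the inner membrane, at 175 ± 3.18, and their means differed by less than the SD of Tomm6. Timm17a, the partner of Timm23 in the channel, stood at 141 ± 9.63 TPM in TM6, and its paralog Timm17b at 29.5 ± 1.60.

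The pore of the outer membrane, Tomm40, was measured at 79.0 ± 3.09 TPM in TM6, and its paralog Tomm40l at 12.7 ± 0.419. Timm22, the channel for carrier proteins, was among the least abundant subunits in TM6, at 15.97 ± 0.371 TPM, next to Timm21 at 15.6 ± 0.310, and these means differed by about the SD of Timm22. Mtx3, a metaxin of the SAM complex, was at 5.98 ± 0.341 TPM, below Mtx1 at 36.6 ± 1.13 and Mtx2 at 53.9 ± 3.93. Tomm6os, an RNA transcribed from the strand opposite Tomm6, was at 0.740 ± 0.190 TPM. Tomm20l and Timm8a2 stood last, at 0.157 ± 0.0902 and 0.05 ± 0.0436 TPM in TM6, and their paralogs Tomm20 and Timm8a1 at 72.0 ± 4.48 and 94.0 ± 9.43.

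**Figure D1:**
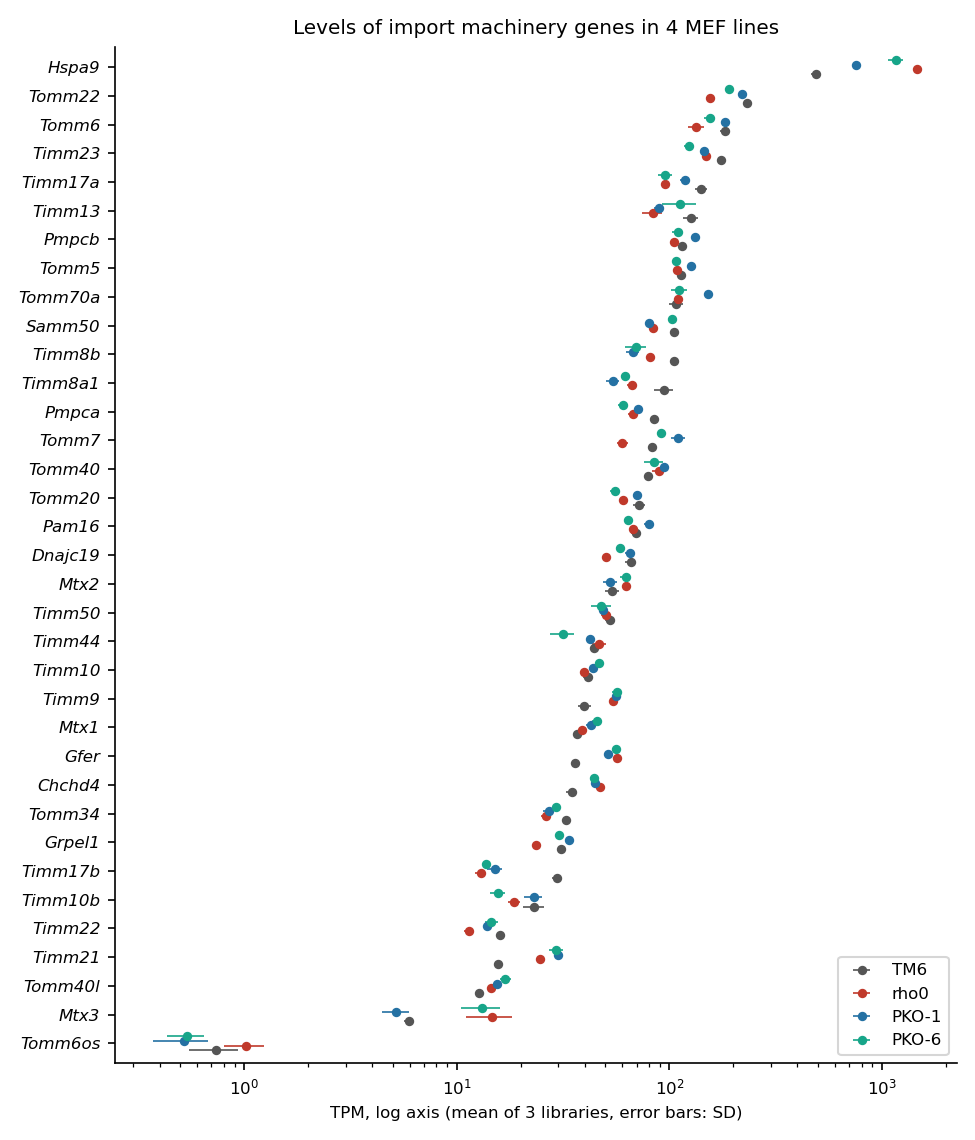
TPM (log axis) of the 35 tested members in TM6, rho0, PKO-1 and PKO-6 MEFs, ordered by the mean in TM6, with points for means of 3 libraries and error bars for the SD. Hspa9 lies above every other member in all 4 lines, at 487 TPM in TM6 and 1456 TPM in rho0, and Tomm6os lies lowest.

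The comparison of rho0 with TM6 asks which members differ in cells that lost mtDNA to the drug. Hspa9 rose 3.04-fold, and Timm21, Gfer and Timm9 also rose, while Timm17b, Timm17a and Tomm22 fell. A gene was called where its adjusted p was below 0.01 and its absolute log2 fold change above 0.5. By this rule 4 of the 35 tested members (11.4%) were called higher and 3 (8.57%) lower, where 13.7% of all 14026 tested genes were called higher and 15.6% lower. No test of the list as a whole was made. The median log2 fold change of the members was -0.09, beside 0.02 for all tested genes, and their median absolute change was 0.313, beside 0.486. All tested genes ranged from -13.5 to 13.1, and the medians were not matched for expression level. The remaining 28 members were not called. When the 4 lines were fitted separately, in a fit whose spread does not include the difference between PKO clones, 5 members were called higher and 4 lower (20.7% and 21.4% of all tested genes), and the additions were Mtx3 (1.30 (edgeR adjusted p = 1.13e-06)) and Timm13 (-0.57 (edgeR adjusted p = 0.00552)).

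The comparison of PKO with TM6 asks the same of cells that lost mtDNA after Pnpt1 was excised. The test counts the 6 libraries of the 2 clones as 6 replicates, here and against rho0, so its p-values do not treat the clone as the unit. Hspa9 rose 2.04-fold and Timm21 1.98-fold, Gfer and Timm9 rose, and Timm17b, Timm8a1 and Timm8b fell. These 4 higher and 3 lower members compare with 13.5% of all tested genes called higher and 12.2% called lower. The median log2 fold change was 0.00 for the members and 0.03 for all tested genes. The median absolute changes were 0.259 and 0.388, again not matched for expression level. For each clone alone, calls were 5 higher and 3 lower in PKO-1 (16.4% and 17.9% of all tested genes), and 5 higher and 4 lower in PKO-6 (21.9% and 19.4%). Both comparisons use the TM6 libraries as reference, so that a deviation of these libraries enters both. The values of both comparisons are given side by side for each member below. Where libraries of different lines are said not to overlap, the share of all tested genes that separate likewise was not counted.

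**Figure D2:**
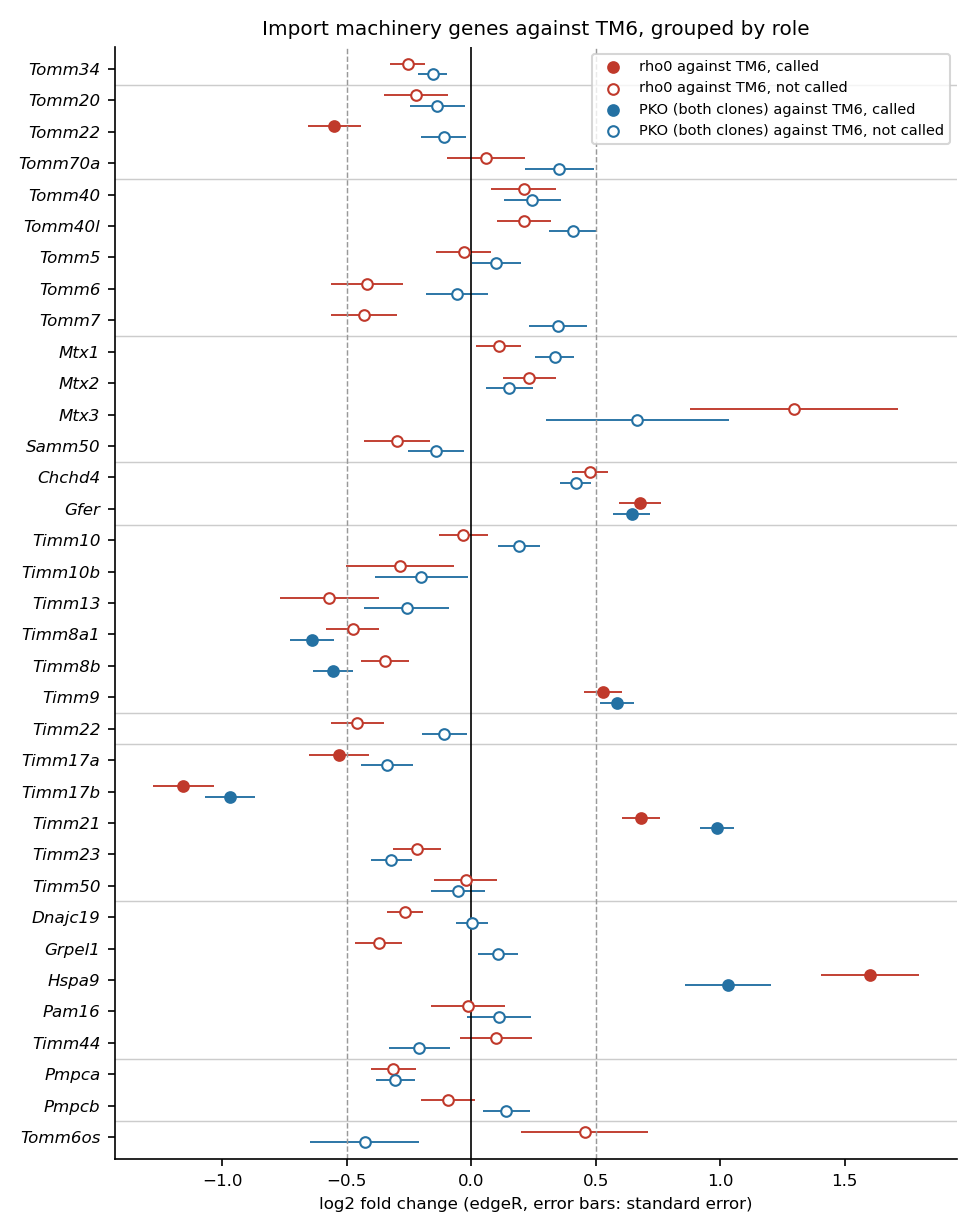
Log2 fold changes of the 35 tested members in rho0 (red) and PKO (blue) MEFs against TM6, grouped by role from the cytosolic factor to the processing peptidase, with standard errors from edgeR. Filled points were called and dashed lines mark a log2 fold change of 0.5, and Hspa9 stands farthest to the right at 1.60 in rho0 and Timm17b farthest to the left at -1.16.

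At the entry gate, 1 of the 3 tested receptors, Tomm22, was called in rho0 and none in PKO against TM6. Tomm70a was called in PKO-1 alone, where 16.4% of all tested genes were called higher. Calls in this and the following role groups stand beside 13.7% of all tested genes called higher and 15.6% lower in rho0. The shares in PKO were 13.5% and 12.2%. Tomm22 had 6215, 6576 and 6448 normalized counts in the TM6 libraries, 4927, 3945 and 4273 in rho0, 6371, 6597 and 6109 in PKO-1 and 5549, 5994 and 5002 in PKO-6. All rho0 libraries lay below all TM6 and all PKO libraries, and PKO-1 overlapped TM6. Tomm22 fell in rho0 (log2 fold change -0.55, standard error 0.107, edgeR adjusted p = 0.00132) and had -0.11 in PKO (edgeR adjusted p = 0.342). Tomm20 had 10542, 11865 and 11861 normalized counts in the TM6 libraries, 10445, 9378 and 9561 in rho0, 12189.8, 11961 and 10935 in PKO-1 and 9107, 9174 and 8980.1 in PKO-6. Tomm20, the receptor for presequences, was not called in either comparison, at -0.22 (edgeR adjusted p = 0.166) in rho0 and -0.14 (edgeR adjusted p = 0.330) in PKO. Tomm70a, the receptor that takes carrier precursors from cytosolic chaperones, was called where PKO-1 was compared alone with TM6 (log2 fold change 0.57, standard error 0.0686, edgeR adjusted p = 6.21e-06), with 20011, 19133 and 17551 normalized counts in PKO-1 against 11553, 13336 and 13298 in TM6, and had 0.10 (edgeR adjusted p = 0.207) in PKO-6. Tomm34, a cytosolic factor that keeps precursors unfolded, was not called.

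The 5 genes of the TOM channel and its small subunits were not called against TM6, with log2 fold changes from -0.43 (Tomm7) to 0.21 (Tomm40l) in rho0 and from -0.06 (Tomm6) to 0.41 (Tomm40l) in PKO. Tomm40 had 3766, 3649 and 3468 normalized counts in the TM6 libraries, 4925, 3722 and 3951 in rho0, 4519, 4672 and 4421 in PKO-1 and 4069.8, 4735 and 3382 in PKO-6. Tomm40 had log2 fold changes of 0.21 (edgeR adjusted p = 0.197) in rho0 and 0.25 (edgeR adjusted p = 0.0972) in PKO, with overlapping libraries. Tomm7 had 2409.7, 2618 and 2526 normalized counts in the TM6 libraries, 2173, 1723 and 1711 in rho0, 3386, 3959.8 and 3199 in PKO-1 and 2877, 3039 and 2758 in PKO-6. Tomm7, a small subunit that also helps to hold the kinase PINK1 at damaged mitochondria, was lower in all rho0 libraries and higher in all PKO libraries than in TM6, with -0.43 (edgeR adjusted p = 0.0188) and 0.35 (edgeR adjusted p = 0.0284), neither of which was called.

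In the SAM complex, which folds barrel proteins into the outer membrane, the 4 genes were not called in the fit of 3 groups. Mtx3 had 1157, 1174 and 1277 normalized counts in the TM6 libraries, 2341, 3392 and 3134 in rho0, 1029.7, 1013 and 1220.4 in PKO-1 and 2864, 2262 and 3059.9 in PKO-6. The rho0 and PKO-6 libraries all lay above the TM6 and PKO-1 libraries, which overlapped each other. Mtx3 had the second largest log2 fold change of all members in rho0, 1.30, but with a standard error of 0.417 in the fit that pools both clones it was not called (edgeR adjusted p = 0.0221). Samm50 had 5093, 5206 and 5194 normalized counts in the TM6 libraries, 4660.0, 3994 and 3938 in rho0, 4199, 4223 and 3923 in PKO-1 and 5254, 5711 and 4777 in PKO-6. Samm50, the barrel-forming core subunit, had -0.30 (edgeR adjusted p = 0.0773) in rho0 and -0.14 (edgeR adjusted p = 0.327) in PKO. Mtx1 had 0.34 (edgeR adjusted p = 0.00452) in PKO, short of the fold threshold, and Mtx2 0.15 (edgeR adjusted p = 0.195).

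The disulfide relay folds small proteins of the intermembrane space by oxidation. Both of its genes had higher counts in every derived library than in any TM6 library. How many of all tested genes separate in this way was not counted. Gfer had 1927, 1861 and 1879.6 normalized counts in the TM6 libraries, 3359, 2808 and 2894 in rho0, 2821, 2973 and 2706 in PKO-1 and 3039.6, 3265 and 2916 in PKO-6. Gfer, the oxidase that recharges the relay, rose in rho0 (log2 fold change 0.68, standard error 0.0848, edgeR adjusted p = 6.26e-05) and PKO (log2 fold change 0.64, standard error 0.0751, edgeR adjusted p = 3.30e-05). Chchd4 had 1129, 1249 and 1261 normalized counts in the TM6 libraries, 1804, 1617 and 1643 in rho0, 1634, 1707 and 1573 in PKO-1 and 1611, 1673 and 1539.7 in PKO-6. Chchd4, the import receptor of the relay, had log2 fold changes of 0.48 (edgeR adjusted p = 2.31e-04) in rho0 and 0.42 (edgeR adjusted p = 2.10e-04) in PKO, past the adjusted p threshold but below 0.5, so it was not called. Their summed level was 70.6 ± 1.63 TPM (mean ± SD, n = 3) for TM6, 104 ± 0.282 for rho0, 96.2 ± 0.561 for PKO-1 and 100.3 ± 3.01 for PKO-6.

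The small TIM chaperones, which escort hydrophobic precursors across the intermembrane space, moved in both directions. Timm9 had 824, 912 and 932 normalized counts in the TM6 libraries, 1388, 1254 and 1209 in rho0, 1327, 1347 and 1267 in PKO-1 and 1322, 1431 and 1313 in PKO-6. Timm9, which forms a chaperone hexamer with Timm10, lay higher in all 9 derived libraries than in TM6 and rose in rho0 (log2 fold change 0.53, standard error 0.0779, edgeR adjusted p = 1.95e-04) and PKO (log2 fold change 0.59, standard error 0.0689, edgeR adjusted p = 3.55e-05). Its partner Timm10 had -0.03 (edgeR adjusted p = 0.804) and 0.19 (edgeR adjusted p = 0.0827). Timm8a1 had 2856, 3464 and 3382 normalized counts in the TM6 libraries, 2482, 2133 and 2356 in rho0, 2093, 2002 and 1760.2 in PKO-1 and 2235, 2248 and 2124 in PKO-6. Timm8a1, whose human counterpart is mutated in deafness-dystonia syndrome, lay lower in every derived library than in TM6 and fell in PKO (log2 fold change -0.64, standard error 0.0893, edgeR adjusted p = 1.25e-04), with -0.48 (edgeR adjusted p = 0.00292) in rho0 just under the fold threshold. Timm8b had 1164, 1247 and 1146 normalized counts in the TM6 libraries, 1029.6, 881 and 887 in rho0, 814, 857 and 706 in PKO-1 and 774, 849.8 and 839.6 in PKO-6. Timm8b, a paralog of Timm8a1, fell in PKO (log2 fold change -0.55, standard error 0.0808, edgeR adjusted p = 1.68e-04) and had -0.35 (edgeR adjusted p = 0.0101) in rho0. Timm13, which forms a hexamer with Timm8a1, had -0.57 (edgeR adjusted p = 0.0323) and -0.26 (edgeR adjusted p = 0.232).

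Timm9 passed the fold threshold narrowly and lost its call in rho0 when TM6 replicate 1 (log2 fold change 0.46) or rho0 replicate 1 (0.45) was left out, and in PKO without TM6 replicate 1 (0.50). The reference annotation lists 2 loci for Timm8a1, of which the copy on chromosome 10 was assigned 0 counts. Timm22 of the carrier translocase stood at 1388, 1438 and 1351 normalized counts in TM6, 1163, 926 and 952 in rho0, 1279.7, 1282 and 1226 in PKO-1 and 1322, 1485 and 1153 in PKO-6. The rho0 libraries lay below all TM6 libraries, at a log2 fold change of -0.46 (edgeR adjusted p = 0.00387) that did not reach the fold threshold, and PKO had -0.11 (edgeR adjusted p = 0.350).

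The TIM23 channel held calls in both directions, with 1 higher and 2 lower of 5 genes in rho0 and 1 of each in PKO, beside the 13.7% higher and 15.6% lower in rho0 and 13.5% and 12.2% in PKO of all tested genes. Timm21 had 569, 598 and 580.3 normalized counts in the TM6 libraries, 1018, 888 and 899 in rho0, 1213, 1183 and 1109.7 in PKO-1 and 1102, 1171 and 1144 in PKO-6. Timm21, which links the channel to the TOM complex and takes part in respiratory chain assembly, lay higher in every derived library than in TM6 and rose in rho0 (log2 fold change 0.68, standard error 0.0763, edgeR adjusted p = 2.79e-05) and PKO (log2 fold change 0.99, standard error 0.0687, edgeR adjusted p = 6.66e-07). Timm17b had 1553, 1479.8 and 1389 normalized counts in the TM6 libraries, 747, 583 and 654 in rho0, 719, 870.1 and 779.8 in PKO-1 and 708, 797 and 647 in PKO-6. Timm17b lay lower in all 9 derived libraries and fell in rho0 (log2 fold change -1.16, standard error 0.122, edgeR adjusted p = 1.79e-05) and PKO (log2 fold change -0.97, standard error 0.101, edgeR adjusted p = 1.41e-05).

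Timm17a had 3146, 3532 and 3542 normalized counts in the TM6 libraries, 2562, 2228 and 2281 in rho0, 3109, 3096 and 2731 in PKO-1 and 2316, 2513 and 2401 in PKO-6. All rho0 and PKO-6 libraries lay below all TM6 libraries, and PKO-1 lay below TM6 as well. Timm17a fell in rho0 (log2 fold change -0.53, standard error 0.121, edgeR adjusted p = 0.00346), a call that was lost without TM6 replicate 2 (-0.51), TM6 replicate 3 (-0.51), rho0 replicate 2 (-0.52) or rho0 replicate 3 (-0.53), and had -0.34 (edgeR adjusted p = 0.0178) in PKO. The ratio of Timm17a to Timm17b in TPM was 4.80 ± 0.573 for TM6 (SD, n = 3), 7.42 ± 0.471 for rho0, 7.88 ± 1.02 for PKO-1 and 6.99 ± 0.661 for PKO-6. Timm23 had 5527, 5745 and 5674 normalized counts in the TM6 libraries, 5294, 4542 and 4735 in rho0, 5107, 4879 and 4688 in PKO-1 and 4084, 4319.6 and 4051 in PKO-6. Timm23 had -0.22 (edgeR adjusted p = 0.0790) in rho0 and -0.32 (edgeR adjusted p = 0.00725) in PKO, below the fold threshold, and Timm50, the receptor of the channel, had -0.02 (edgeR adjusted p = 0.894) and -0.05 (edgeR adjusted p = 0.717).

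In the import motor Hspa9 was the 1 call among 5 genes in each comparison with TM6. Of all tested genes, 13.7% were called higher and 15.6% lower in rho0, and 13.5% and 12.2% in PKO. Hspa9 had 43028, 47470.4 and 47576 normalized counts in the TM6 libraries, 149016, 131912 and 138257 in rho0, 78639, 76266 and 69902 in PKO-1 and 111597, 113307 and 114989 in PKO-6. The lines did not overlap, and TM6 was lowest, followed by PKO-1, PKO-6 and rho0. Hspa9 rose in rho0 (log2 fold change 1.60, standard error 0.195, edgeR adjusted p = 5.18e-05) and PKO (log2 fold change 1.03, standard error 0.173, edgeR adjusted p = 4.58e-04), and under the omission of any 1 library these changes stayed at 1.53 to 1.62 in rho0 and 0.94 to 1.10 in PKO. The other motor genes lay within 0.5 of no change: Grpel1, the nucleotide exchange factor of Hspa9, had -0.37 (edgeR adjusted p = 0.00659) in rho0 and 0.11 (edgeR adjusted p = 0.299) in PKO, Timm44, which tethers Hspa9 to the channel, 0.10 (edgeR adjusted p = 0.582) and -0.21 (edgeR adjusted p = 0.184), and Dnajc19, a J protein that stimulates it, -0.27 (edgeR adjusted p = 0.0107) and 0.00 (edgeR adjusted p = 0.979). Pam16, which restrains that J protein, had -0.01 and 0.11.

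Neither subunit of the processing peptidase was called. Pmpcb had 5115, 5589.8 and 5256 normalized counts in the TM6 libraries, 5396, 4632 and 4942 in rho0, 6608, 6578 and 6164 in PKO-1 and 5174, 5438 and 5238 in PKO-6. Pmpcb, the catalytic subunit, had -0.09 (edgeR adjusted p = 0.496) in rho0 and 0.14 (edgeR adjusted p = 0.240) in PKO, and Pmpca, the subunit that recognises the substrate, -0.31 (edgeR adjusted p = 0.0132) and -0.30 (edgeR adjusted p = 0.00686). The ratio of Pmpca to Pmpcb in TPM was 0.744 ± 0.0189 for TM6, 0.640 ± 0.0337 for rho0, 0.538 ± 0.00550 for PKO-1 and 0.556 ± 0.00280 for PKO-6 (mean ± SD of 3 libraries), lower in every derived library than in TM6.

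**Figure D3:**
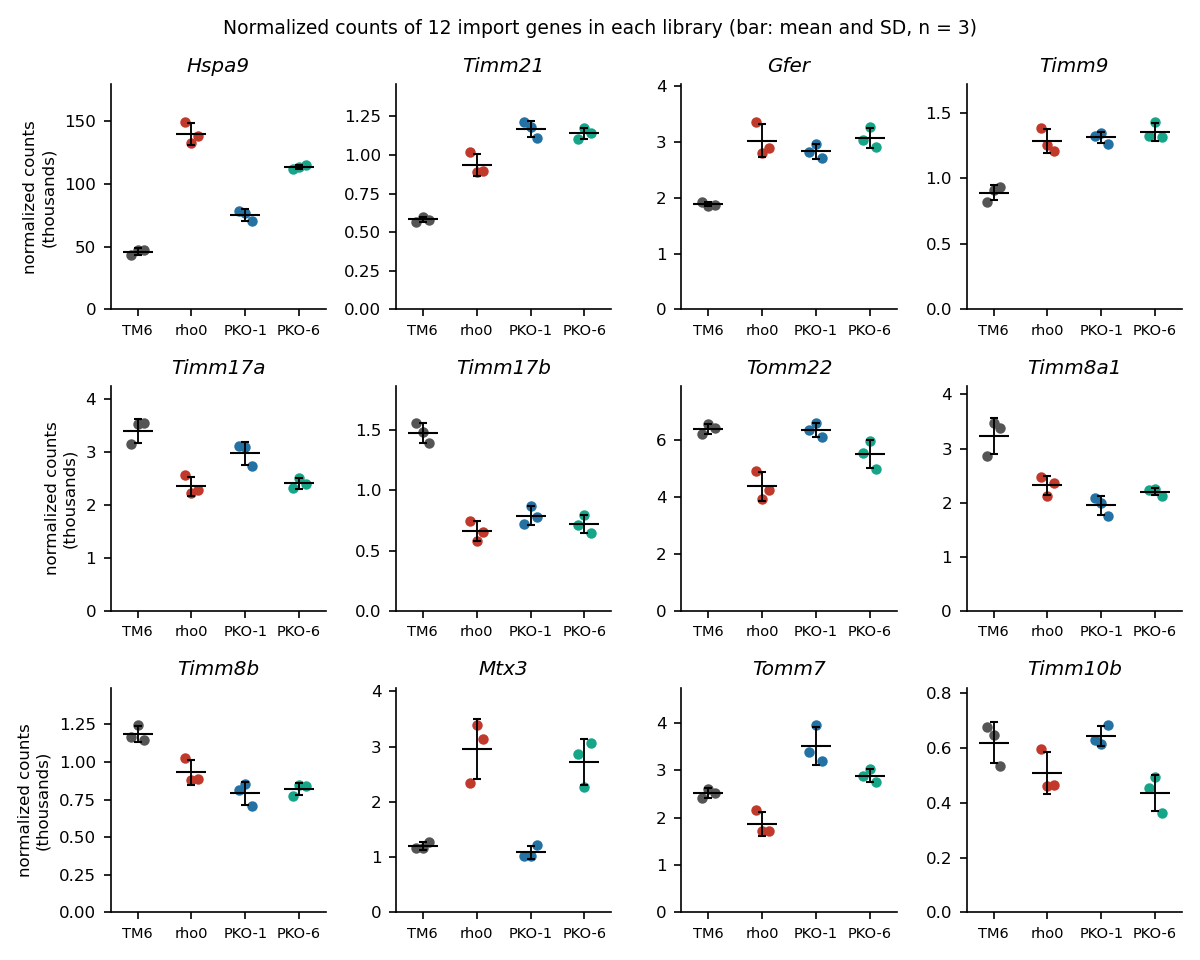
Normalized counts (axes from 0) of the 12 members named in the panels in each of the 12 libraries, with points for libraries and bars for the mean and SD of 3 replicates. Hspa9 separates all 4 lines, Timm17b is lower and Timm21, Gfer and Timm9 higher in all derived lines than in TM6, and Mtx3 is higher in rho0 and PKO-6 than in TM6 and PKO-1.

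Summed over the members, the TPM of the machinery was 2943 ± 63.2 for TM6, 3566 ± 35.3 for rho0, 3159 ± 67.3 for PKO-1 and 3362 ± 117 for PKO-6 (mean ± SD of 3 libraries). Hspa9 made up 16.6% of this sum in TM6, 40.8% in rho0, 24.0% in PKO-1 and 34.4% in PKO-6. Without Hspa9 the sums were 2456 ± 40.6, 2109 ± 27.3, 2401 ± 38.6 and 2205 ± 48.5 TPM in the same order. All derived libraries lay above TM6 in the whole sum, while without Hspa9 the rho0 and PKO-6 libraries lay below TM6 and PKO-1 overlapped it. The small TIM chaperones summed to 429.7 ± 13.2 TPM in TM6 and to between 325 and 377 TPM in the derived libraries, and the TIM23 channel genes stood at 413 ± 9.48 TPM in TM6 and 331 ± 2.99, 356 ± 10.6 and 310.1 ± 11.6 in rho0, PKO-1 and PKO-6. TPM values of a library share 1 total, and the sums were not tested.

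**Figure D4:**
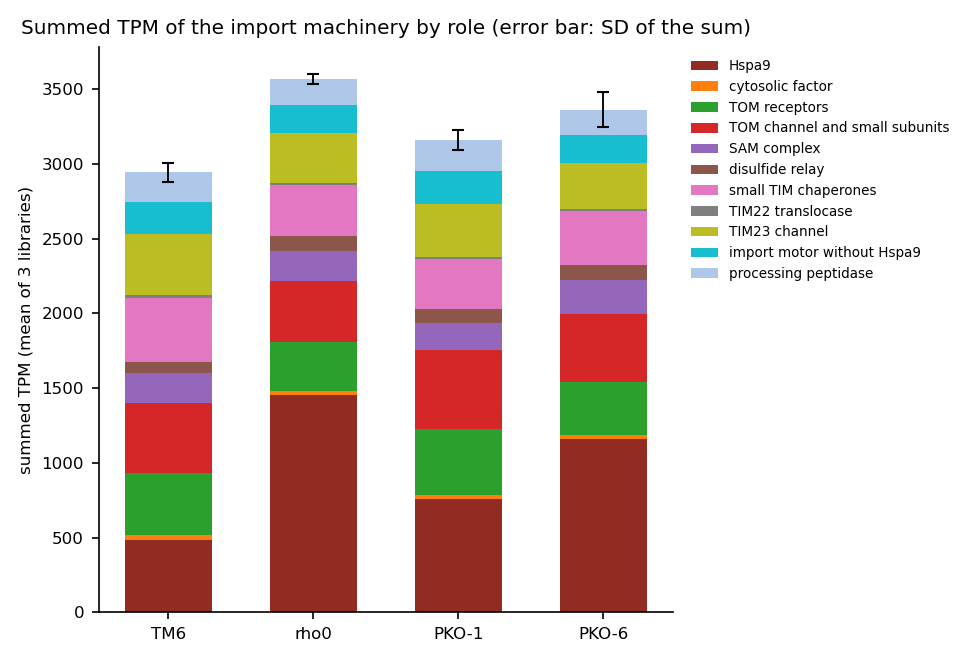
Summed TPM of the members by role in each line (stacked means of 3 libraries, axis from 0), with Hspa9 drawn apart from the other motor genes and error bars for the SD of the whole sum. The Hspa9 share grows from 16.6% in TM6 to 40.8% in rho0, while the rest of the stack falls from 2456 to 2109 TPM.

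Several of the called members lie on chromosomes whose genes shifted together. In rho0 and PKO against TM6, the median log2 fold change was -0.75 and -0.78 over the 461 tested genes of chromosome X, 0.55 and 0.56 over the 491 of chromosome 12, and 0.42 and 0.39 over the 381 of chromosome 18. Timm17b (chrX:7899336-7907652, plus strand) and Timm8a1 (chrX:134537256-134541670, minus strand) lie on chromosome X, and Timm9 (chr12:71123172-71136675, minus strand) on chromosome 12. After the median of its chromosome was subtracted, Timm17b was at -0.40 in rho0 and -0.19 in PKO, Timm8a1 at 0.27 and 0.14, and Timm9 at -0.02 and 0.03. The chromosome median was thus larger in size than the change of Timm8a1 and smaller than that of Timm17b in both comparisons.

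Hspa9 (chr18:34937415-34954351, minus strand) and Timm21 (chr18:84947294-84951524, minus strand) lie on chromosome 18. Hspa9 remained at 1.18 in rho0 and 0.64 in PKO after subtraction, and Timm21 at 0.26 and 0.60. Gfer (chr17:24693191-24696156, minus strand) was at 0.43 and 0.42, Tomm22 (chr15:79670868-79672862, plus strand) at -0.17 in rho0, Timm17a (chr1:135301535-135313737, minus strand) at -0.64 in rho0, and Timm8b (chr9:50603901-50605320, plus strand) at -0.39 in PKO. The threshold of 0.5 was applied to these values with the adjusted p of the change before subtraction. The subtracted change itself was not tested. By this rule Hspa9 was the member called higher and Timm17a the member called lower in rho0. In PKO, Hspa9 and Timm21 were called higher and 0 members lower. Of all tested genes, 11.6% were called higher and 13.2% lower in rho0, and 10.9% and 10.4% in PKO. The part of the chromosome-wide shifts in each gene's change was not tested.

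**Figure D5:**
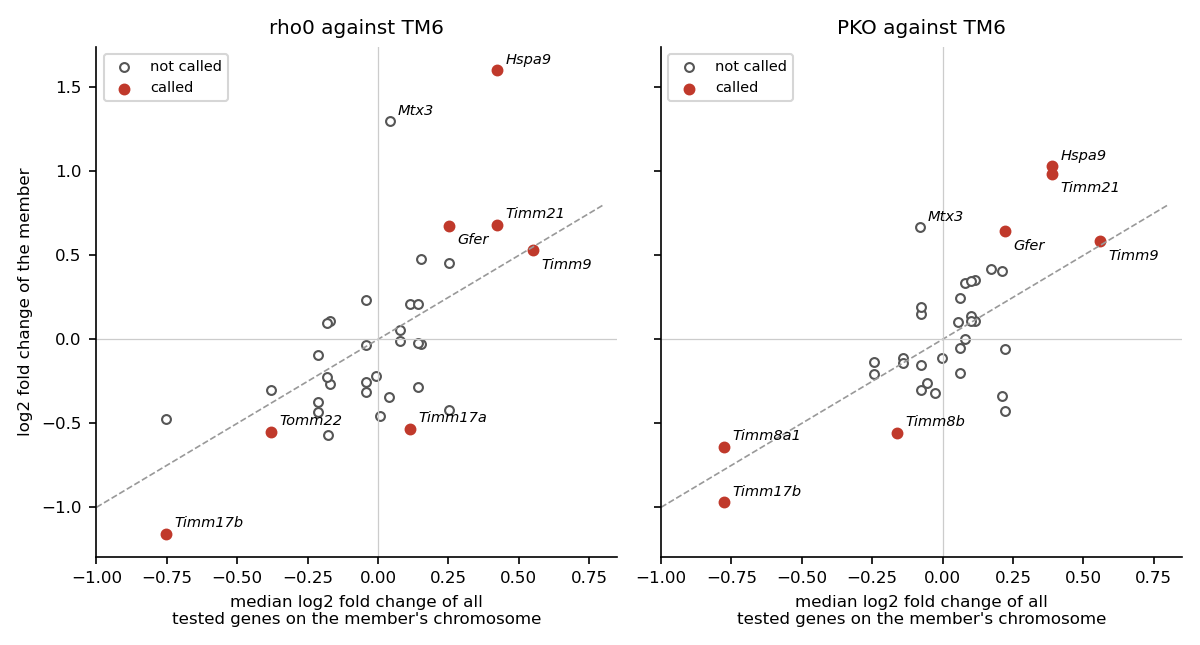
Log2 fold change of each tested member against the median log2 fold change of all tested genes on its chromosome, for rho0 (left) and PKO (right) against TM6, with called members filled and named and the dashed line marking equality. Timm9 lies on the line at 0.53 in rho0, and Hspa9 lies above it at 1.60 in rho0 and 1.03 in PKO.

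PKO was compared with rho0 to ask whether lines without Pnpt1 differ from a line that lost mtDNA but kept it. Tomm7 was higher and Tomm6os lower in PKO, so that 1 of 35 members was called in each direction, where 6.33% of all tested genes were called higher and 4.36% lower. Tomm7 (chr5:23838944-23844145, minus strand) rose by 0.78 (standard error 0.119, edgeR adjusted p = 6.84e-04), and the libraries did not overlap. The median of all tested genes of chromosome 5 was 0.32 in this comparison, and Tomm7 was at 0.46 after it was subtracted. Tomm6os had 86.5, 54.5 and 62.8 normalized counts in the TM6 libraries, 78.5, 105 and 96.0 in rho0, 36.9, 50.1 and 62.1 in PKO-1 and 60.6, 42.5 and 50.4 in PKO-6. The call of Tomm6os (log2 fold change -0.88, standard error 0.217, edgeR adjusted p = 0.00994) was lost in 14 of 23 alternatives, among them the omission of each of 10 libraries in turn, with an adjusted p of up to 0.0523. Tomm6os overlaps Tomm6 on the opposite strand by 777 bases, and Tomm6 had 4906, 4761 and 4349 normalized counts in TM6 alone, so that the assignment of reads between them is uncertain.

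Hspa9 had -0.57 in PKO against rho0 and was not called (standard error 0.162, edgeR adjusted p = 0.0197). Against rho0 in the fit of 4 lines, PKO-1 was at -0.90 (edgeR adjusted p = 1.10e-07) and PKO-6 at -0.30 (edgeR adjusted p = 0.00249). Grpel1 had 0.48 (edgeR adjusted p = 0.00144), Tomm22 0.44 (edgeR adjusted p = 0.00495) and Timm21 0.30 (edgeR adjusted p = 0.00549), all below the fold threshold. After the median of its chromosome was subtracted, Grpel1 stood at 0.16, Tomm22 at 0.17 and Timm21 at 0.33. The median log2 fold change of the members was 0.12 and that of all tested genes 0.02.

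The clones share the deletion, and their comparison shows how far lines of 1 genotype differ. With PKO-1 set against PKO-6, calls fell on 3 of the 35 members, 1 higher and 2 lower, where 11.5% of all tested genes were called higher and 17.6% lower. Mtx3 (chr13:92844787-92858230, plus strand) was lower in PKO-1 (log2 fold change -1.33, standard error 0.136, edgeR adjusted p = 1.50e-06), and its libraries at 1029.7, 1013 and 1220.4 normalized counts lay below those of PKO-6 at 2864, 2262 and 3059.9. The genes of chromosome 13 had a median of -0.41 between the clones, and Mtx3 was at -0.92 after it was subtracted. Against TM6, Mtx3 had -0.14 (edgeR adjusted p = 0.374) in PKO-1 and 1.18 (edgeR adjusted p = 2.61e-06) in PKO-6. The ratio of Mtx1 to Mtx3 in TPM was accordingly 6.13 ± 0.291 for TM6, 2.78 ± 0.788 for rho0, 8.36 ± 1.28 for PKO-1 and 3.60 ± 0.950 for PKO-6 (mean ± SD of 3 libraries).

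Hspa9 was likewise lower in PKO-1 (log2 fold change -0.60, standard error 0.0701, edgeR adjusted p = 5.88e-06), and each clone lay above TM6, by 0.70 (edgeR adjusted p = 1.03e-06) and 1.30 (edgeR adjusted p = 1.39e-09). Timm10b had 679, 647 and 535 normalized counts in the TM6 libraries, 597, 462 and 467 in rho0, 629.7, 615 and 685 in PKO-1 and 454, 493 and 365 in PKO-6. Timm10b, a small TIM protein held at the TIM22 complex, was higher in PKO-1 (log2 fold change 0.56, standard error 0.131, edgeR adjusted p = 0.00224), but the call was lost without PKO-1 replicate 3 (0.51) or PKO-6 replicate 3 (0.44). Timm44 had 0.44 (edgeR adjusted p = 7.10e-06) and Tomm70a 0.47 (edgeR adjusted p = 4.39e-05), below the fold threshold.

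More than 1 RefSeq transcript is listed for 9 members, of which Timm9 was singled out after its values were seen. Its 797-base transcript of 4 exons held 33.0%, 31.7% and 31.0% of the gene's TPM in TM6 and 28.9%, 32.7% and 35.0% in PKO-1, against 17.1%, 12.5% and 11.5% in rho0 and 20.02%, 19.4% and 14.4% in PKO-6. Its 883-base transcript of 5 exons held most of the rest, at 63.0% ± 2.20 in TM6, 73.9% ± 3.24 in rho0, 59.9% ± 3.39 in PKO-1 and 68.7% ± 3.12 in PKO-6 (mean ± SD of 3 libraries). The rho0 and PKO-6 libraries thus lay apart from TM6 and PKO-1 in the shorter transcript, a description of estimated shares that was not tested. Timm17b had a noncoding transcript at 5.73% ± 2.18 of its TPM in TM6, 1.03% ± 0.185 in rho0, 1.87% ± 1.69 in PKO-1 and 1.06% ± 0.435 in PKO-6, and 1 PKO-1 library at 3.81% overlapped TM6, whose lowest was 3.31%. Annotated spans of called members overlap other genes on the opposite strand in Timm21 (Fbxo15, 4231 bases, a mean of 23.6 counts a library), Timm8b (AU019823, 81 bases, 1040.0 counts), Timm9 (Tomm20l, 51 bases, 1.75 counts) and Tomm6os (Prickle4, 2619 bases, 36.9 counts, beside Tomm6). Each span joins all copies of a symbol on 1 chromosome and strand. The joined spans of 4 predicted genes cover the whole of Timm17b, and that of Mir3471-1 the whole of Tomm7, all at 0 counts. Whether single copies of these genes overlap Timm17b or Tomm7 was not examined. The spans include introns, and whether exons overlap was not examined. Where exons do overlap, reads cannot be assigned with certainty, because the counting strand is not stated in the sources used here.

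Of 16 other genes of import and sorting that are not members, 3 were called higher and 1 lower in rho0 against TM6 (13.7% and 15.6% of all tested genes). In PKO against TM6, 5 were called higher and 2 lower (13.5% and 12.2%). In PKO against rho0, edgeR called 0 of them (6.33% higher and 4.36% lower of all tested genes). There 9 of the 16 had an unadjusted edgeR p below 0.05, as had 6246 of all 14026 tested genes. DESeq2 called 1 of the 16 lower in that comparison (5.08% of the genes it tested). Immp2l had 45.8, 50.6 and 55.8 normalized counts in the TM6 libraries, 345, 268 and 293 in rho0, 131, 173 and 146 in PKO-1 and 226, 225 and 180.3 in PKO-6. Immp2l, a peptidase of the inner membrane that cuts sorting signals, rose in rho0 (log2 fold change 2.57, standard error 0.235, edgeR adjusted p = 6.36e-06) and PKO (log2 fold change 1.83, standard error 0.211, edgeR adjusted p = 3.08e-05), on chromosome 12, and stood at 2.02 and 1.27 after the median of that chromosome was subtracted. Aifm1 had 4260.0, 4550.3 and 4577 normalized counts in the TM6 libraries, 1498, 1309 and 1437 in rho0, 2132, 2169 and 2074 in PKO-1 and 1378, 1545 and 1536 in PKO-6. Aifm1, which anchors Chchd4 at the inner membrane, fell in rho0 (log2 fold change -1.66, standard error 0.171, edgeR adjusted p = 1.57e-05) and PKO (log2 fold change -1.31, standard error 0.139, edgeR adjusted p = 1.69e-05), on chromosome X, and stood at -0.91 and -0.53 after the median of that chromosome was subtracted. Aifm1 was the 1 gene of the 16 that was called between the clones (0.52 (edgeR adjusted p = 7.10e-06) in PKO-1 against PKO-6). Of all tested genes, 11.5% were called higher and 17.6% lower there.

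Dnajc15, a paralog of Dnajc19, rose in rho0 (0.65 (edgeR adjusted p = 0.00231)) and PKO (0.72 (edgeR adjusted p = 5.39e-04)), as did Grpel2, a paralog of Grpel1 (0.61 (edgeR adjusted p = 0.00180) and 0.53 (edgeR adjusted p = 0.00183)). Mipep, a second peptidase of the matrix (0.61 (edgeR adjusted p = 3.54e-05)), and Timmdc1, an assembly factor of respiratory complex I (0.59 (edgeR adjusted p = 1.81e-05)), rose in PKO, where Oxa1l, the insertase for proteins made inside mitochondria, fell (-0.52 (edgeR adjusted p = 2.72e-04)). Grpel2 lies on chromosome 18 and stood at 0.18 in rho0 and 0.14 in PKO after the median of that chromosome was subtracted, below the fold threshold. By the same subtraction Dnajc15 stood at 0.66 and 0.75, and in PKO Mipep at 0.63, Timmdc1 at 0.47 and Oxa1l at -0.49, the last pair also short of the fold threshold.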

How the data were processed

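Ribosomal RNA was removed by the authors, and stranded paired-end libraries were made as technical duplicates whose reads were merged. Per the labels, the submitters' notes list bcl2fastq, RSEM 1.2.25, Bowtie2 and DESeq2 1.18.1, with genome mm10 (GRCm38) and RefSeq transcripts. The deposited gene table holds expected counts (estimated counts, not normalized), of which 12.5% had decimals, and they were rounded before testing. The deposited library files hold expected counts and TPM per transcript, and a gene's TPM is the sum over its transcripts. Whether counting used strand is not given in the sources used here.

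In R 4.3.3, edgeR 4.0.16 (quasi-likelihood test, TMM scaling, genes kept by filterByExpr at 10 counts) was fitted to all 12 libraries and 14026 genes, in 3 groups (TM6, rho0, and PKO with both clones pooled) or, for comparisons that involve a single clone, in 4 lines. Adjusted p follows Benjamini and Hochberg across the tested genes. The standard error is the size of a log2 fold change divided by the square root of the F statistic. The fit of 3 groups had a biological coefficient of variation of 0.248 and that of 4 lines 0.0837. Library totals were 47164860 to 67991378 counts (median 55405647), and the gene table holds 0 genes encoded by mtDNA.

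The members, role groups, the list of 16 other import genes, the marker lists and the alternatives were chosen with earlier results of these data known. Values in every library are given for members called in any of the 4 comparisons and for a central member of each role group, and other members by ranges or fold changes. The alternatives were size factors or the Wald test with shrunken fold changes of DESeq2 1.42.0, omission of the low-count filter, blocking by replicate number, a fit by line, a fit of the compared groups, either clone alone, other fold thresholds, subtraction of chromosome medians and omission of single libraries. The test was tried on simulated data. Motifs were searched in RefSeq promoter windows. Protein sequences were not analysed here, and Timm29 is not listed in the gene table under that symbol.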

Additional observations from a re-analysis of the deposited data

Results flagged for a closer look

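The changes against TM6 of 3 members were called different between the PKO clones (edgeR's quasi-likelihood test over all genes, fit of 4 lines). The call also required a difference larger than 0.5 in log2 units. On the adjusted p threshold of 0.01 alone, 11 of the 35 tested members passed, as did 7014 of all 14026 tested genes. For Mtx3, the log2 change in PKO-1 minus that in PKO-6 was -1.33 (adjusted p = 1.50e-06), with PKO-1 near TM6 and PKO-6 above it. For Hspa9 the difference was -0.60 (adjusted p = 5.88e-06), and all libraries of both clones lay above TM6. For Timm10b it was 0.56 (adjusted p = 0.00224), with PKO-1 near TM6 and PKO-6 below it. Each clone is 1 line, so a difference between clones cannot be told apart from clonal variation that is unrelated to Pnpt1.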

How the results depend on the processing

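The alternatives gave 1740 fold changes of the named members. Settings with another fold threshold reuse the main fold changes, whose direction is thus kept by construction. Some omitted libraries lie outside the comparison in question. Of the 1740, 1626 kept their direction and side of the threshold, 48 lost a call and 32 gained one. Another 32 that were not called changed sign and stayed uncalled. The 2 called values that changed sign were Timm9 in rho0 (-0.020) and Timm8a1 in PKO (0.14), both with chromosome medians subtracted. That subtraction left 1 member higher and 1 lower in rho0 against TM6 (11.6% and 13.2% of all tested genes). It left 2 higher and 0 lower in PKO against TM6 (10.9% and 10.4%). In PKO against rho0 (5.03%) and in PKO-1 against PKO-6 (9.72%) it left 0 higher. With no fold threshold, 6 members were lower in rho0 (18.6% of all tested genes), 7 higher (18.2%) and 5 lower (16.2%) in PKO, 5 higher in PKO against rho0 (10.1%), and 8 higher in PKO-1 against PKO-6 (24.6%). With an absolute log2 fold change above 1, 1 was higher and 1 lower in rho0 (6.9% and 7.66% of all tested genes). In PKO 1 was higher and 0 lower (6.64% and 6.11%). In PKO against rho0 0 were called in either direction (2.72% and 2.04%), and between the clones 0 higher and 1 lower (3.93% and 9.97%). The compared groups fitted alone gave 5 lower in rho0 (22.5% of all tested genes). For PKO against rho0, PKO-1 alone gave 4 higher and 3 lower (15.1% and 17.6% of all tested genes), and PKO-6 alone 2 lower (8.16%). The 4 lines fitted separately gave 3 lower (12.4%) and DESeq2's Wald test 2 lower (5.08%). No filter or the compared groups alone gave 0 lower (3.01% and 3.11%). Mtx3 in rho0 was called with DESeq2's Wald test, with 4 lines and with the compared groups alone. The cause of these moves was not tested.

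When single libraries were omitted, 3 to 5 members were called higher and 2 to 7 lower in rho0 against TM6 (7 without rho0 replicate 1). In PKO against TM6 the ranges were 3 to 4 higher and 3 to 3 lower. In PKO against rho0 they were 1 to 3 higher (3 without rho0 replicate 1) and 0 to 1 lower. In PKO-1 against PKO-6 they were 0 to 1 higher and 2 to 3 lower. The shares of all tested genes called under these omissions were not counted. Deviations of libraries with the same replicate number had correlations of -0.39 to 0.25 over 18 pairs, beside -0.42 to 0.49 over 36 pairs with different numbers. The main fits therefore did not pair libraries by number. Whether libraries of 1 number share a batch is not given in the labels and cannot be told from these correlations. The replicate block took away Tomm6os in PKO against rho0 (0 called lower) and Timm17a in rho0, and no other call of a named member. Tomm6os had at most 105 normalized counts in a library, and Tomm20l and Timm8a2 had too few to be tested.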
